A study of Rattus norvegicus with 18 samples.

Results

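The genes described here are 9 classical targets of the transcription factor NRF2 and enzymes of glutathione synthesis: Nfe2l2, which encodes NRF2 itself, Gclc, Gclm, Slc7a11, Gpx2, Srxn1, Txnrd1, Nqo1 and Osgin1. They were found by their symbol among the 22081 genes of the deposited lung expression tables. A row of that name was present for 8 of the 9, and Srxn1 was not analysed here. RNA was sequenced from lungs of male F344 rats, an inbred strain with no engineered allele. The 9 control rats received the vehicle alone (0 mg/kg), and the 9 MWCNT-treated rats received MWNT-7, a thick and needle-like multiwalled carbon nanotube, at 0.5 mg/kg body weight. All 18 rats were dosed into the trachea once every 4 weeks from 9 weeks of age. Lungs were taken 0.5, 1 and 2 years into this schedule (Year 0.5, 1 and 2) from 3 control and 3 MWCNT-treated rats each, so that the rats also aged between time points. The RNA came from pieces of 1 lung lobe, the accessory lobe, and tissue with visible tumor nodules had been set aside.

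NRF2 is held in the cytoplasm by KEAP1, which presents it to a ubiquitin ligase for degradation. Electrophiles and oxidants modify KEAP1, NRF2 then accumulates in the nucleus, pairs with small MAF proteins and binds the antioxidant response element in front of genes for glutathione synthesis, thiol reduction and detoxification. Glutathione is built from cystine-derived cysteine in a first step by glutamate-cysteine ligase and a second by glutathione synthetase, and in the lung it is abundant in the fluid that lines the airspaces.

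Total counts were between 13297643 and 17868851 in the control libraries and between 14661589 and 21130757 in the MWCNT libraries. Markers of the lung were present throughout: the summed TPM (a level scaled for gene length and library size) of 6 alveolar type 2 cell markers was between 27587 and 36460 in control rats and between 50760 and 60319 in MWCNT-treated rats. Heart muscle markers, which can come with lung tissue when it is cut, varied between 16.2 and 788 summed TPM across rats. In whole tissue, fewer cells of a type and less RNA per cell cannot be told apart.

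The antioxidant response element core, TGACNNNGC, was searched on both strands of the RefSeq promoter windows (assembly GRCr8, from 250 bases before to 50 bases after each start of transcription). All 9 genes matched a window by symbol, Txnrd1 with 2 starts, and 4 of the 10 windows held the core, against 12.1% of all 33469 windows. The match lay at positions -172 to -164 for Gclm, at -13 to -5 for Gpx2, at -78 to -70 for the second Txnrd1 start and, after the start, at 39 to 47 for Nfe2l2. The windows of Slc7a11, Gclc, Srxn1, Nqo1, Osgin1 and the first Txnrd1 start held no match, which says only that these letters are not in this window. The AP-1 motif TGACTCA, which does not overlap the core matches of any member, occurred in the Srxn1 window alone among the members, at -62 to -56 and -5 to 2, and in 4.63% of all windows. The 250 bases before the start are shown for the 3 genes with a match there and for Slc7a11, the gene with the largest difference in expression, which had none. Capitals mark the core, read here on the opposite strand.
Gclm (chr2:213031885-213032134, + strand): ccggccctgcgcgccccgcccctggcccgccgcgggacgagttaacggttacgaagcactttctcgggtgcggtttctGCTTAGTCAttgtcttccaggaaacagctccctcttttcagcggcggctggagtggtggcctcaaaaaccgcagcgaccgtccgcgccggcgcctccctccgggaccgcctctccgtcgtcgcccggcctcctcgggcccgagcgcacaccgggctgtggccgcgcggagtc
Gpx2 (chr6:101230034-101230283, - strand): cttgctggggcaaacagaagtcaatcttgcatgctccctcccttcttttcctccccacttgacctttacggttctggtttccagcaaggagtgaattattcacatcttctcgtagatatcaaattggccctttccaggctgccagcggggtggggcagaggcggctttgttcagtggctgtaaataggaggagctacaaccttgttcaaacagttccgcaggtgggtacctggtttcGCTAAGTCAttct
Txnrd1, start 2 (chr7:22755905-22756154, - strand): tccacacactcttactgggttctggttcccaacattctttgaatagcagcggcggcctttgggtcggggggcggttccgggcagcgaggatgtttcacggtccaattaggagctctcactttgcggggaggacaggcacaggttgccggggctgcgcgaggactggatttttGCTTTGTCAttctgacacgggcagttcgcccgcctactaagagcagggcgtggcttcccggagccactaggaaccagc
Slc7a11 (chr2:136668265-136668514, - strand): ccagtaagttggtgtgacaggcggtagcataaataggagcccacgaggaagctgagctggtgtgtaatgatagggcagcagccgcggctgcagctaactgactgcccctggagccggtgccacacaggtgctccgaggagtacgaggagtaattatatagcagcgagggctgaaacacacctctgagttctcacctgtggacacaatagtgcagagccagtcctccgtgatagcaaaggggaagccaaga

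**Figure D1:**
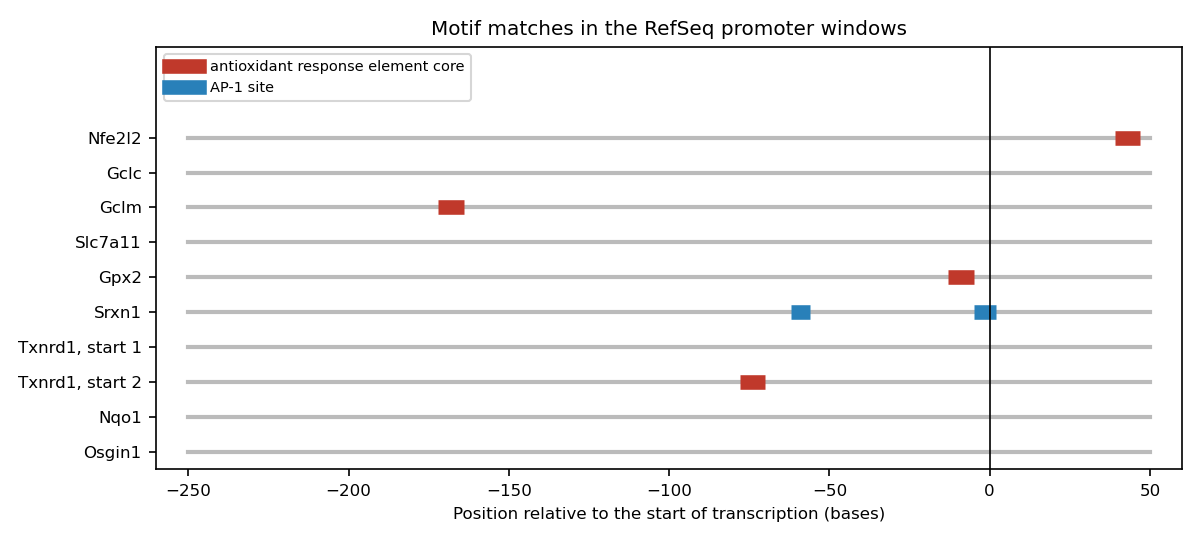
Positions of motif matches in the 10 promoter windows of the 9 genes, in bases relative to the start of transcription (vertical line); each grey line is 1 window, red bars are antioxidant response element cores and blue bars are AP-1 motifs. Cores lie before the start of Gclm, Gpx2 and the second Txnrd1 start and after that of Nfe2l2.

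In the deposited coordinates (Rnor_6.0), the 8 genes with a row lie on chromosomes 2, 3, 6, 7, 8 and 19. Gclm (ENSRNOG00000013409, chr2:225827504-225847874) and Slc7a11 (ENSRNOG00000010210, chr2:139453774-139528162) share chromosome 2, and Nqo1 (ENSRNOG00000012772, chr19:38422164-38437180) and Osgin1 (ENSRNOG00000014948, chr19:52077109-52085496) share chromosome 19. Txnrd1 (ENSRNOG00000009088) lies at chr7:26946125-26984400, Gclc (ENSRNOG00000006302) at chr8:85059051-85097468, Gpx2 (ENSRNOG00000055672) at chr6:99839960-99843245 and Nfe2l2 (ENSRNOG00000001548) at chr3:62497571-62524996. Values are whole-gene values, over all exons.

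By level per length in control rats, Gpx2 was the most abundant of the 8, at 147 to 168 TPM, followed by Nfe2l2 at 107 to 120 TPM. Nqo1 (61.3 to 77.0 TPM) and Txnrd1 (63.3 to 71.8 TPM) overlapped in their levels and came next. Gclm followed at 35.5 to 45.2 TPM, then Gclc at 20.6 to 27.9 TPM and Osgin1 at 9.27 to 14.1 TPM. Slc7a11 was nearly absent, at 0.0648 to 0.724 TPM over the 9 control rats. In all 9 MWCNT-treated rats it stayed the least abundant of the 8, at 1.74 to 5.03 TPM.

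MWCNT-treated and control rats were compared at each time point to ask which of these genes respond to the nanotubes, and a gene was called when its false discovery rate (FDR, Benjamini-Hochberg, edgeR quasi-likelihood test over all tested genes) was below 0.05 and its absolute log2 fold change above 1. Slc7a11 was upregulated at all 3 time points and was the 1 member called at each. The call was met by 9.1% of the 14315 tested genes at Year 0.5, 10.2% of 14345 at Year 1 and 16.4% of 14361 at Year 2, and 1 of 8 members is near these shares. With no fold limit, 3, 5 and 3 of the 8 members had an FDR below 0.05 at Year 0.5, 1 and 2, all of them higher in MWCNT-treated rats, beside 38.8%, 41.2% and 49.2% of all tested genes in either direction and 20.2%, 21.6% and 25.2% in the higher and 18.6%, 19.6% and 24% in the lower direction. The 7 members other than Slc7a11 had log2 fold changes between -0.22 and 0.32 at Year 0.5, between -0.15 and 0.62 at Year 1 and between -0.34 and 0.71 at Year 2. The median over the 8 was 0.16, 0.28 and 0.07, beside -0.02, 0.00 and -0.01 over all tested genes.

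**Figure D2:**
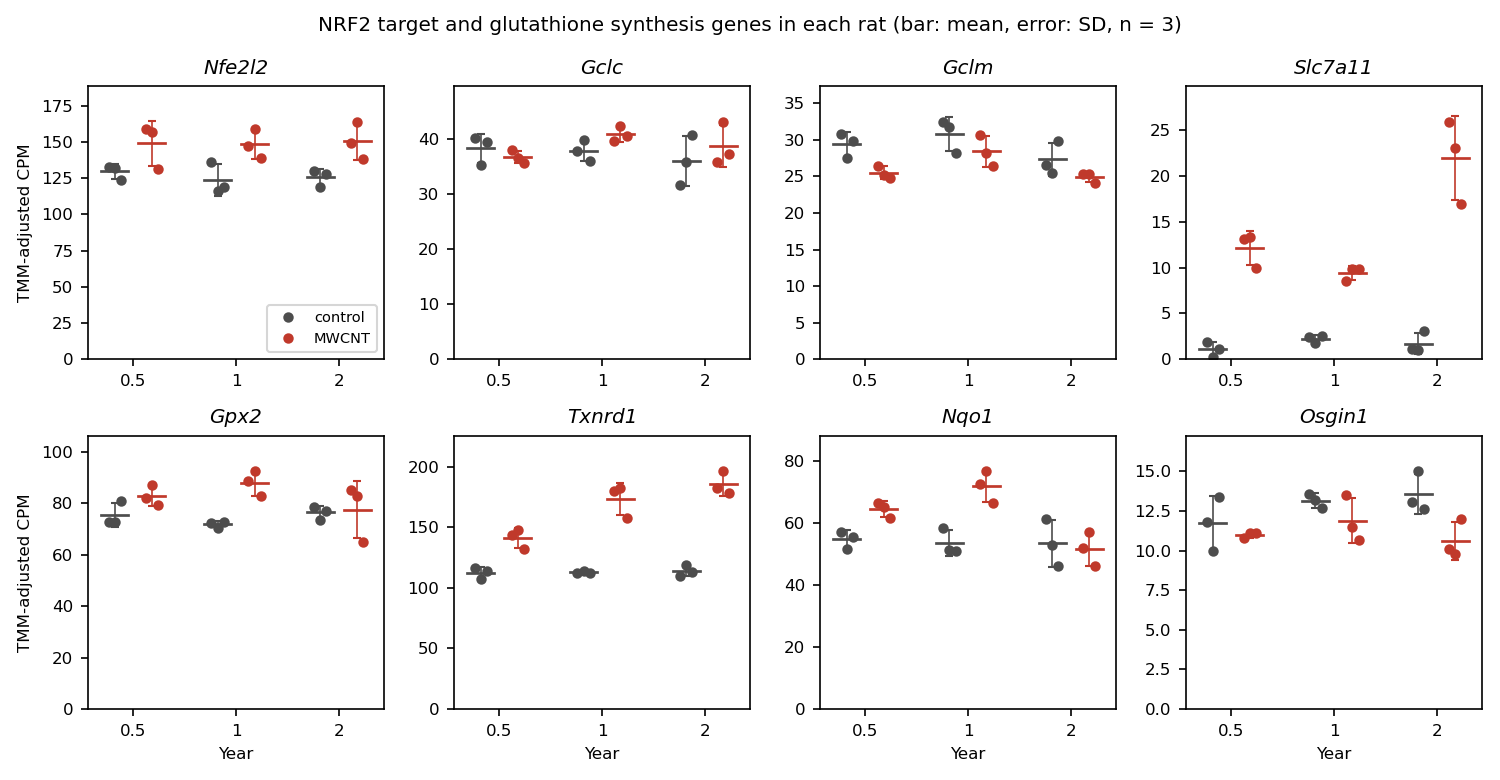
TMM-adjusted CPM (counts scaled for library size and composition, not for gene length) of the 8 genes in each of the 18 rats by year, control in grey and MWCNT-treated in red; points are rats, bars the mean and error bars the SD of 3 rats, and each axis starts at 0. The 2 treatments separate widely for Slc7a11, by a smaller margin for Txnrd1 at every year, and overlap at 1 or more years for the other 6.

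Slc7a11 encodes the exchanger xCT, which brings cystine into the cell in return for glutamate and so supplies cysteine for glutathione. The control rats had 32, 4 and 17 counts at Year 0.5, 34, 28 and 47 at Year 1, and 16, 15 and 44 at Year 2. The MWCNT-treated rats had 193, 267 and 154 counts at Year 0.5, 128, 158 and 148 at Year 1, and 354, 371 and 253 at Year 2. Every MWCNT-treated rat lay above every control rat of any year. In TMM-adjusted CPM, a level scaled for library size and composition, the control means were 1.08 ± 0.791, 2.23 ± 0.401 and 1.71 ± 1.19 (SD, n = 3 each) at Year 0.5, 1 and 2. The MWCNT means were 12.1 ± 1.82, 9.37 ± 0.741 and 21.9 ± 4.58 (SD, n = 3 each). By edgeR the log2 fold change was 3.43 (SE 0.41, FDR 0.000302) at Year 0.5, 2.07 (SE 0.19, FDR 6.28e-05) at Year 1 and 3.69 (SE 0.37, FDR 4.5e-05) at Year 2, or 10.7-fold, 4.19-fold and 12.9-fold. The control counts are low, and leaving out 1 rat at a time moved the Year 0.5 value between 3.00 and 4.08. Slc3a2, the heavy chain with which xCT pairs at the membrane, had log2 fold changes of -0.21 (SE 0.06, FDR 0.0236), -0.05 (SE 0.07, FDR 0.552) and -0.11 (SE 0.08, FDR 0.271) and did not pass the call at any time point.

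Over time, Slc7a11 was lowest at Year 1 and highest at Year 2 among MWCNT-treated rats. The ranges were 8.52 to 9.80, 10 to 13.3 and 16.9 to 25.9 CPM at Year 1, 0.5 and 2. In the model of all 18 rats it was higher at Year 2 than at Year 1 in MWCNT-treated rats by 1.24 on the log2 scale (SE 0.32, edgeR FDR 0.0307), a call that 0.903% of the 14843 tested genes met. This call ended when any 1 of the 3 Year 1 rats (FDR 0.0570 to 0.110) or rat 1 or 2 of Year 2 (FDR 0.117 and 0.0942) was left out, with differences of 1.10 to 1.28. Year 2 against Year 0.5 (0.87, SE 0.32, FDR 0.0795) and Year 1 against Year 0.5 (-0.37, SE 0.32, FDR 0.757) did not pass the FDR by edgeR. By DESeq2 the FDR of Year 2 against Year 0.5 was below 0.05. In control rats the largest time difference was 1.00 (SE 0.45, FDR 0.696), Year 1 over Year 0.5. The effect of treatment did not pass the interaction test between any pair of time points: its change was -1.37 (SE 0.55, FDR 0.556) from Year 0.5 to Year 1 and 1.64 (SE 0.53, FDR 0.141) from Year 1 to Year 2. The last value was called by DESeq2 (1.63, FDR 0.0321) and without control rat 3 of Year 2 (2.36, FDR 0.0273).

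Cell type markers moved in the same direction or against it across the same groups. The summed TPM of 10 macrophage markers was 400 to 538 in control rats and 1144 to 1385, 1253 to 1574 and 1771 to 1997 in MWCNT-treated rats at Year 0.5, 1 and 2, and 7, 6 and 8 of the 10 were called higher. 1 of the 10, Cd163, was called lower at Year 1, and no macrophage marker was at 0 in every rat of a group. The 6 neutrophil markers summed to 211 to 381 TPM in control rats and 365 to 1144 TPM in MWCNT-treated rats, with Mpo at 0 in all rats of 3 of the 6 groups. Of the 5 neutrophil markers tested, S100a9 was called higher at every time point and S100a8 at Year 1 and Year 2. The other 4, 3 and 3 did not pass the FDR at Year 0.5, 1 and 2, and the median log2 fold change of the 5 was 0.06, 0.35 and 0.38. Airway markers (7 of 8 with a row) summed to 18075 to 32825 TPM in control rats and 10473 to 15534 TPM in MWCNT-treated rats, and endothelial markers (5 of 6 with a row) to 1192 to 1616 and 438 to 867 TPM. Of the airway markers tested, 1 of 6, 2 of 5 and 3 of 5 were called lower at Year 0.5, 1 and 2, and of the endothelial markers 2, 1 and 3 of 5. Over all tested genes, 6.07%, 6.13% and 8.17% were called higher and 3.03%, 4.09% and 8.22% lower. At an FDR below 0.05 with no fold limit, 6, 5 and 6 of the 6 alveolar type 2 markers were higher at Year 0.5, 1 and 2. Of the 5 alveolar type 1 markers, 5, 4 and 5 were lower by this rule. The shares over all tested genes by it were 20.2%, 21.6% and 25.2% higher and 18.6%, 19.6% and 24% lower. Fibroblast markers (5 of 6 with a row) summed to 608 to 1367 TPM in control rats and 715 to 1193 TPM in MWCNT-treated rats. The treatments overlapped at Year 0.5 and Year 2, and at Year 1 the MWCNT-treated rats (729 to 814) lay below the controls (825 to 985). Of the 5 fibroblast markers, 0, 0 and 1 were called higher and 0, 0 and 1 lower. At an FDR below 0.05 with no fold limit, 2, 1 and 2 were higher and 2, 2 and 2 lower. Heart muscle markers were called lower in 6 of 6 tested at Year 0.5, 0 of 6 at Year 1 and 1 of 6 at Year 2, and Nppa was at 0 in all rats of 4 groups. The part of these shifts in the values of the 8 genes was not tested.

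The genes with the profile most like that of Slc7a11 over the 18 rats, by root mean square difference of centred log2 CPM among 14843 genes, were Fcrl2 (0.55), Folr2 (0.55) and Rhbdl2 (0.56). Fcrl2, an Fc receptor-like gene, had log2 fold changes of 2.99, 2.55 and 3.08 at Year 0.5, 1 and 2. For Folr2, which encodes folate receptor beta, the 3 values were 2.75, 2.77 and 3.47, and for Rhbdl2, a rhomboid protease gene with 3 to 96 counts per rat, they were 3.07, 3.03 and 2.80. All 3 genes were called at every time point, which their choice by likeness to Slc7a11 in the same rats makes likely.

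Gclc and Gclm encode the catalytic and the modifier subunit of glutamate-cysteine ligase, the rate-limiting enzyme of glutathione synthesis. Gclc stood at 40.2, 35.3 and 39.4 CPM in the control rats of Year 0.5, 37.7, 39.8 and 36.0 at Year 1, and 31.6, 35.8 and 40.6 at Year 2. In MWCNT-treated rats it stood at 37.9, 36.5 and 35.6 CPM, then 39.6, 42.4 and 40.5, and then 35.8, 43.1 and 37.2. The treatments overlapped at every time point, and no difference passed the test: the log2 fold change was -0.08 (SE 0.08, edgeR FDR 0.463), 0.11 (SE 0.08, FDR 0.281) and 0.11 (SE 0.11, FDR 0.430). The sign at Year 1 and Year 2 turned with library size as the only scaling and on TPM. Gclm stood at 30.8, 27.5 and 29.9 CPM in control rats at Year 0.5, at 32.5, 31.7 and 28.2 at Year 1 and at 26.6, 25.5 and 29.9 at Year 2. In MWCNT-treated rats its levels were 26.5, 25.2 and 24.8 CPM, then 30.7, 28.2 and 26.4, and then 25.4, 25.3 and 24.1. All MWCNT-treated rats lay below all controls at Year 0.5 and, by a narrow margin, at Year 2, beside 51.6% and 59.9% of all tested genes whose groups did not overlap in either direction. The log2 fold change of Gclm was -0.22 (SE 0.08, edgeR FDR 0.0553), -0.11 (SE 0.10, FDR 0.370) and -0.12 (SE 0.09, FDR 0.290). With library size as the only scaling it was -0.32 (FDR 0.0109), -0.25 (FDR 0.0622) and -0.30 (FDR 0.0250), and on log2(TPM + 1) it was -0.35 (limma FDR 0.00605), -0.34 (FDR 0.0182) and -0.33 (FDR 0.0137). At Year 0.5 the FDR was also below 0.05 with upper quartile scaling (0.0290), in the model of all 18 rats (0.0436) and without control rat 2 (0.0412). Scaling by library size alone moved the median of all genes by -0.10, -0.13 and -0.17 at Year 0.5, 1 and 2, and relative to that median Gclm stood at -0.20, -0.11 and -0.11.

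Txnrd1 encodes the cytosolic thioredoxin reductase, a selenoprotein that returns thioredoxin to its reduced form with NADPH. Its levels in control rats were 116, 107 and 114 CPM at Year 0.5, 112, 114 and 112 CPM at Year 1, and 110, 119 and 113 CPM at Year 2. In MWCNT-treated rats they were 144, 148 and 132 CPM at Year 0.5, 180, 182 and 158 CPM at Year 1, and 182, 196 and 178 CPM at Year 2. All MWCNT-treated rats lay above all controls. Groups separated in either direction for 51.6%, 54.9% and 59.9% of all tested genes at Year 0.5, 1 and 2. The log2 fold change was 0.32 (SE 0.07, edgeR FDR 0.00543), 0.62 (SE 0.08, FDR 0.000333) and 0.71 (SE 0.07, FDR 3.47e-05), which passed the FDR at every time point and stayed under the fold limit of the call. On log2(TPM + 1) by limma the Year 0.5 value was 0.17 (FDR 0.0561). From Year 0.5 to Year 2 the effect of treatment grew by 0.40 (SE 0.09, edgeR interaction FDR 0.0356), and Txnrd1 was the 1 member of 8 past this test, beside 1.31% of the 14843 tested genes. That call ended in 9 of the 12 fits that left out 1 rat of the 4 groups, all except those without control rat 2 or MWCNT-treated rat 2 of Year 0.5 or MWCNT-treated rat 3 of Year 2, and the difference ranged from 0.33 to 0.44 over the 12. It also ended with no filter on low counts, 2 other scalings and a fit of these 4 groups alone, with FDRs of 0.0532 to 0.0930. Within MWCNT-treated rats Txnrd1 was higher at Year 2 than at Year 0.5 by 0.41 (SE 0.06, FDR 0.000459), and in control rats the same difference was 0.01 (SE 0.06, FDR 0.952).

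Gpx2, a selenium-dependent glutathione peroxidase of epithelia, stood at 72.6, 72.9 and 80.8 CPM in control rats of Year 0.5, at 72.2, 70.6 and 72.8 at Year 1 and at 78.7, 73.6 and 77.1 at Year 2. In MWCNT-treated rats it stood at 82.0, 87.3 and 79.4 CPM, then 88.7, 92.4 and 82.7, and then 85.1, 82.9 and 64.8. The groups separated at Year 1 alone, where 54.9% of all tested genes did. The log2 fold change was 0.12 (SE 0.07, edgeR FDR 0.198), 0.29 (SE 0.07, FDR 0.0111) and 0.03 (SE 0.10, FDR 0.848). At Year 1 it was 0.16 (FDR 0.0978) with library size as the only scaling and 0.05 (FDR 0.466) on log2(TPM + 1). At Year 2 the sign rested on single rats and on the scaling.

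Nqo1 encodes a quinone reductase and is a widely used marker gene of NRF2 activity. Control rats had 57.3, 51.6 and 55.7 CPM at Year 0.5, 58.4, 51.5 and 50.9 at Year 1, and 61.3, 52.9 and 46.2 at Year 2. MWCNT-treated rats had 66.6, 65.2 and 61.7 CPM at Year 0.5, 72.6, 76.7 and 66.4 at Year 1, and 52.0, 57.1 and 46.2 at Year 2. The MWCNT-treated rats lay above the controls at Year 0.5 and Year 1 and overlapped with them at Year 2. Groups separated in either direction for 51.6% and 54.9% of all tested genes at Year 0.5 and Year 1. Its log2 fold change was 0.22 (SE 0.07, edgeR FDR 0.0306), 0.43 (SE 0.09, FDR 0.00477) and -0.04 (SE 0.12, FDR 0.794). The Year 0.5 difference lost its FDR with library size as the only scaling (0.12, FDR 0.188), upper quartile scaling (0.18, FDR 0.0663) and a replicate block (FDR 0.0525). Its FDR was also above 0.05 in the model of all 18 rats (0.0833) and on log2(TPM + 1) (0.08, limma FDR 0.33). The same held without control rat 2 (FDR 0.0931), MWCNT-treated rat 1 (FDR 0.0915) or MWCNT-treated rat 2 (FDR 0.0850). The Year 1 difference was 0.19 (FDR 0.0590) on log2(TPM + 1). In MWCNT-treated rats Nqo1 was lower at Year 2 than at Year 1 (log2 fold change -0.46, SE 0.10, edgeR FDR 0.0108), where 5.94% of all genes passed with no fold limit, and in control rats that difference was near 0 (FDR 0.995). The change in the treatment effect from Year 1 to Year 2 was -0.45 (SE 0.14, interaction FDR 0.119), and -0.55 (FDR 0.0385) without control rat 3 of Year 2.

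Nfe2l2 itself, whose protein is controlled mainly by degradation, stood at 133, 132 and 124 CPM in control rats of Year 0.5, at 136, 116 and 119 at Year 1 and at 130, 119 and 128 at Year 2. MWCNT-treated rats had 159, 157 and 131 CPM, then 147, 159 and 139, and then 149, 164 and 138. The treatments overlapped at Year 0.5 and separated at Year 1 and Year 2, where 54.9% and 59.9% of all tested genes did in either direction. By edgeR the log2 fold change was 0.19 (SE 0.08, FDR 0.0939), 0.26 (SE 0.09, FDR 0.0374) and 0.27 (SE 0.08, FDR 0.0230). The Year 1 FDR was 0.0526 and the Year 2 FDR 0.0546 with a replicate block, and 0.238 and 0.360 with library size as the only scaling (log2 fold changes 0.13 and 0.10). On log2(TPM + 1) the difference was 0.03 (limma FDR 0.750) at Year 1 and 0.05 (FDR 0.626) at Year 2. Leaving out control rat 2 (FDR 0.137) or 3 (FDR 0.135) or MWCNT-treated rat 1 (FDR 0.0741) or 2 (FDR 0.0796) ended the Year 1 result, and leaving out control rat 2 (FDR 0.0796) or MWCNT-treated rat 1 (FDR 0.0577) or 2 (FDR 0.0910) the Year 2 result. At Year 0.5 the FDR was 0.0115 without MWCNT-treated rat 3.

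Osgin1, an oxidative stress-induced growth inhibitor, was at 11.8, 9.98 and 13.4 CPM in control rats of Year 0.5, at 13.6, 13.2 and 12.7 at Year 1 and at 13.1, 15 and 12.6 at Year 2. MWCNT-treated rats had 10.8, 11.1 and 11.1 CPM, then 13.5, 11.5 and 10.7, and then 10.1, 9.78 and 12.0. The MWCNT-treated rats overlapped with the controls at Year 0.5 and Year 1 and lay below them at Year 2, where 59.9% of all tested genes separated in either direction. Here the log2 fold change was -0.10 (SE 0.14, edgeR FDR 0.579), -0.15 (SE 0.12, FDR 0.357) and -0.34 (SE 0.14, FDR 0.0630). At Year 2 it was -0.44 (FDR 0.0404) without MWCNT-treated rat 3 and -0.51 (FDR 0.0120) with library size as the only scaling, which is -0.33 relative to the median of all genes. The Year 2 FDR was also below 0.05 with upper quartile scaling (0.0353), in the model of all 18 rats (0.03) and on log2(TPM + 1) (0.0105), and the Year 1 FDR on the last (-0.35, FDR 0.0389).

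**Figure D3:**
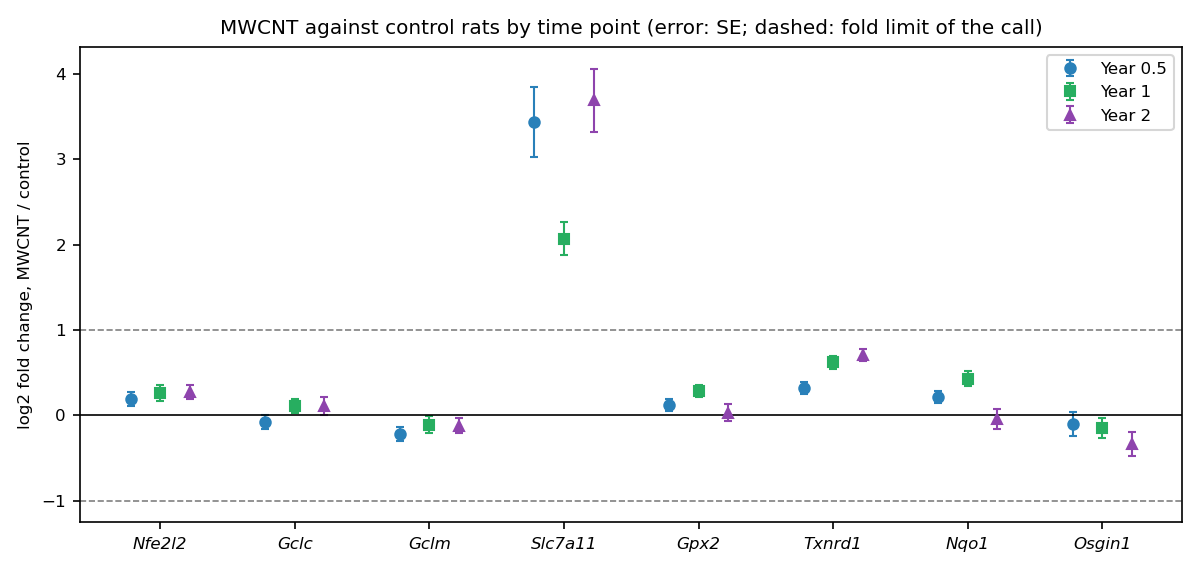
Log2 fold change of MWCNT-treated over control rats for the 8 genes at Year 0.5 (circles), 1 (squares) and 2 (triangles), with the standard error of the edgeR fit on 3 against 3 rats; dashed lines mark the fold limit of the call. Slc7a11 lies between 2.07 and 3.69, and the other 7 lie between -0.34 and 0.71.

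Across time within a treatment, 0 of the 8 members were called between Year 2 and Year 0.5 in control rats, where edgeR called 0.633% of all genes and 0 members had an unadjusted p under 0.05. The count was also 0 in MWCNT-treated rats, where 2.34% of all genes were called. Nqo1, Slc7a11 and Txnrd1, 3 of the 8, had an unadjusted p under 0.05 there. An unadjusted p under 0.05 by edgeR was met by 3565 of the 14843 tested genes in control rats and 4110 in MWCNT-treated rats. DESeq2 called 0 in both comparisons. With no fold limit, 1 member, Txnrd1, had an edgeR FDR below 0.05 in MWCNT-treated rats, beside 2006 of the 14843 tested genes. By DESeq2 the same 3 members did, beside 2283 genes. Between Year 0.5 and Year 1 the interaction test passed 0 members by edgeR and 0 by DESeq2, with 2 members, Slc7a11 and Txnrd1, at an unadjusted p under 0.05, and edgeR passed 0 of all genes (1260 at an unadjusted p under 0.05) where DESeq2 passed 6. Between Year 1 and Year 2 it passed 0 members by edgeR, beside 0.478% of all genes, and 1 by DESeq2, beside 512 genes. Nqo1 and Slc7a11 had an unadjusted p under 0.05 by edgeR, beside 2446 of the 14843 tested genes.

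Around the 8 members, 75 other genes of the pathway were listed by role, of which 72 had a row and 70, 69 and 69 were tested at Year 0.5, 1 and 2. Of these, 7, 10 and 11 were called higher in MWCNT-treated rats and 0, 1 and 5 lower, beside 6.07%, 6.13% and 8.17% of all tested genes called higher and 3.03%, 4.09% and 8.22% called lower. At Year 0.5 the count was 4 without MWCNT-treated rat 2, where Chac1, Glrx and Idh1 were not called. At Year 1 the 11 calls were 7 with library size as the only scaling and 5 on log2(TPM + 1).

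The 5 tested genes of the list for supply of NADPH, the electron donor of glutathione and thioredoxin reductase, were all higher. Pgd, the other of the 6 listed, had no row. All 5 tested had an FDR below 0.05 at every time point, beside 20.2%, 21.6% and 25.2% of all tested genes in the higher direction. Their median log2 fold change was 0.62, 0.76 and 0.81. All 5 stayed above 0 under the other scalings, and 4 of 5 passed the FDR at Year 0.5 with library size as the only one. Idh1, the cytosolic isocitrate dehydrogenase, was upregulated at every time point, at 69.9 to 74.1, 68.5 to 76.8 and 59.0 to 73.4 CPM in control rats and 133 to 160, 146 to 185 and 155 to 173 CPM in MWCNT-treated rats. Its log2 fold change was 1.04 (SE 0.08, edgeR FDR 2.8e-05), 1.18 (SE 0.10, FDR 3.94e-05) and 1.31 (SE 0.09, FDR 6.01e-06).

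Of the 23 genes for peroxide, superoxide and disulphide reduction, 7, 12 and 12 were higher and 6, 4 and 5 lower at an FDR below 0.05, and with library size as the only scaling 7, 8 and 7 were higher. Over all tested genes 20.2%, 21.6% and 25.2% were higher and 18.6%, 19.6% and 24% lower by this rule. Prdx5, a peroxiredoxin of mitochondria and peroxisomes, was upregulated at every time point: its level was 86.3 to 113 CPM over the control rats and 283 to 401 CPM at Year 0.5 and 1 and 370 to 418 CPM at Year 2 in MWCNT-treated rats. The log2 fold change of Prdx5 was 1.58 (SE 0.08, edgeR FDR 5.4e-06), 1.84 (SE 0.13, FDR 1.76e-05) and 1.98 (SE 0.07, FDR 2.98e-07). Sod2, the mitochondrial superoxide dismutase, was upregulated by 1.44, 1.76 and 1.73 and Txnrd3, the thioredoxin-glutathione reductase, by 1.32, 1.09 and 1.11. Glrx, a glutaredoxin, was called at every time point (1.00, 1.13 and 1.19) and Gpx1, the widespread glutathione peroxidase, at Year 1 and Year 2 (1.13 and 1.20). The Year 0.5 call of Glrx was lost without control rat 1 (0.96) or 3 (0.92) or MWCNT-treated rat 1 (0.97) or 2 (0.96). The extracellular superoxide dismutase Sod3 was downregulated at Year 2, with a log2 fold change of -1.09 (SE 0.09, FDR 1.72e-05). Glrx, Gpx1 and Sod3 are named here after their values were seen. Partner enzymes of the members stayed under the fold limit: Txn1, thioredoxin, had 0.37, 0.63 and 0.47, Prdx1 0.58, 0.81 and 0.83, and glutathione reductase Gsr 0.17, 0.23 and 0.30. The FDR was below 0.05 for each of these apart from Gsr at Year 0.5 (0.0741).

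Among the genes of glutathione supply and breakdown, 9 of 12 were tested and 1 was called higher at each time point. This was Chac1, a gamma-glutamylcyclotransferase that degrades glutathione, with 0.759 to 1.88 CPM in control rats and 1.72 to 4.53 CPM in MWCNT-treated rats. Its log2 fold change was 1.24 (SE 0.31, edgeR FDR 0.0126), 1.40 (SE 0.31, FDR 0.00635) and 1.21 (SE 0.37, FDR 0.0243), on 11 to 69 counts per rat. The call was lost at Year 0.5 without control rat 1 (FDR 0.0529) or MWCNT-treated rat 2 (FDR 0.0501), and at Year 2 without control rat 1 (FDR 0.0772), control rat 3 (FDR 0.0656) or MWCNT-treated rat 1 (FDR 0.110). Gss, glutathione synthetase, had log2 fold changes of 0.45 (FDR 0.0426), 0.55 (FDR 0.00388) and 0.66 (FDR 0.000721), under the fold limit. Cbs, which starts the route from homocysteine to cysteine, was downregulated at Year 2 (-2.42, SE 0.46, FDR 0.00214), on 36 to 45 counts in control rats and 3 to 14 in MWCNT-treated rats.

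Of the other NRF2 targets, 18 were tested and 7, 7 and 12 were higher and 2, 4 and 3 lower at an FDR below 0.05. With library size as the only scaling, 4, 5 and 7 were higher. The shares over all tested genes were 20.2%, 21.6% and 25.2% higher and 18.6%, 19.6% and 24% lower. Hmox1, heme oxygenase, was upregulated at every time point, from 37.1, 38.2 and 37.2 CPM in the control rats to 115, 118 and 95.1 CPM in the MWCNT-treated rats of Year 0.5, and from 48.1, 40.0 and 42.0 to 189, 156 and 150 CPM at Year 2. At Year 1 the control rats were more spread, at 55.8, 73.1 and 45.2 CPM, and the MWCNT-treated rats had 147, 157 and 174 CPM. The log2 fold change of Hmox1 was 1.54 (SE 0.09, edgeR FDR 8.64e-06), 1.46 (SE 0.16, FDR 0.000159) and 1.94 (SE 0.11, FDR 2.24e-06). The ferritin light chain gene Ftl1 and the aldo-keto reductase gene Akr1b8 were upregulated at Year 1 and Year 2, Ftl1 by 1.29 and 1.31 and Akr1b8 by 1.06 and 1.40. Aldh3a1, an aldehyde dehydrogenase, was downregulated at Year 1 (-1.16, SE 0.31, FDR 0.0168) and Year 2 (-2.27, SE 0.33, FDR 0.000435), and the Year 1 call was lost without control rat 3 (FDR 0.0621), MWCNT-treated rat 1 (-0.93) or MWCNT-treated rat 3 (FDR 0.0533). Akr7a3 (-1.20) and Pir (-1.09) were downregulated at Year 2. Pir stood at -0.96 without control rat 1 there. Akr1b8 stood at 1.00 without control rat 3 of Year 1, and Gpx1 and Txnrd3 at 0.95 and 1.00 without MWCNT-treated rat 2 of Year 1, where they were not called. Ftl1, Akr7a3 and Pir are named after their values were seen.

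Of 15 genes listed for control of NRF2, 15, 14 and 14 were tested. The list also holds the related factors Nfe2l1, Nfe2l3 and Nfe2. Both edgeR and DESeq2 called 0 at every time point, with 7, 6 and 8 at an unadjusted p under 0.05 by edgeR. Log2 fold changes lay between -0.94 (Nfe2 at Year 2) and 0.55 over the 3 time points. At an FDR below 0.05 with no fold limit, 4, 4 and 4 were higher and 1, 0 and 3 lower. Over all tested genes the shares were 20.2%, 21.6% and 25.2% higher and 18.6%, 19.6% and 24% lower. An unadjusted p under 0.05 by edgeR was met by 6842 of 14315, 7196 of 14345 and 8032 of 14361 tested genes. Keap1, the sensor, had log2 fold changes of -0.23 (SE 0.08, edgeR FDR 0.0531), 0.02 (SE 0.08, FDR 0.867) and -0.18 (SE 0.06, FDR 0.0463). Of the 3 small MAF genes, Mafg had 0.44 (FDR 0.0150), 0.29 (FDR 0.0360) and 0.49 (FDR 0.00371), Mafk had -0.29 (FDR 0.0156), -0.11 (FDR 0.458) and -0.37 (FDR 0.00932), and Maff had FDRs of 0.991, 0.807 and 0.938. Bach1, a repressor that competes for the same element, had 0.54 (SE 0.07, FDR 0.000168) at Year 2. The small MAF genes and Bach1 are named after their values were seen.

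**Figure D4:**
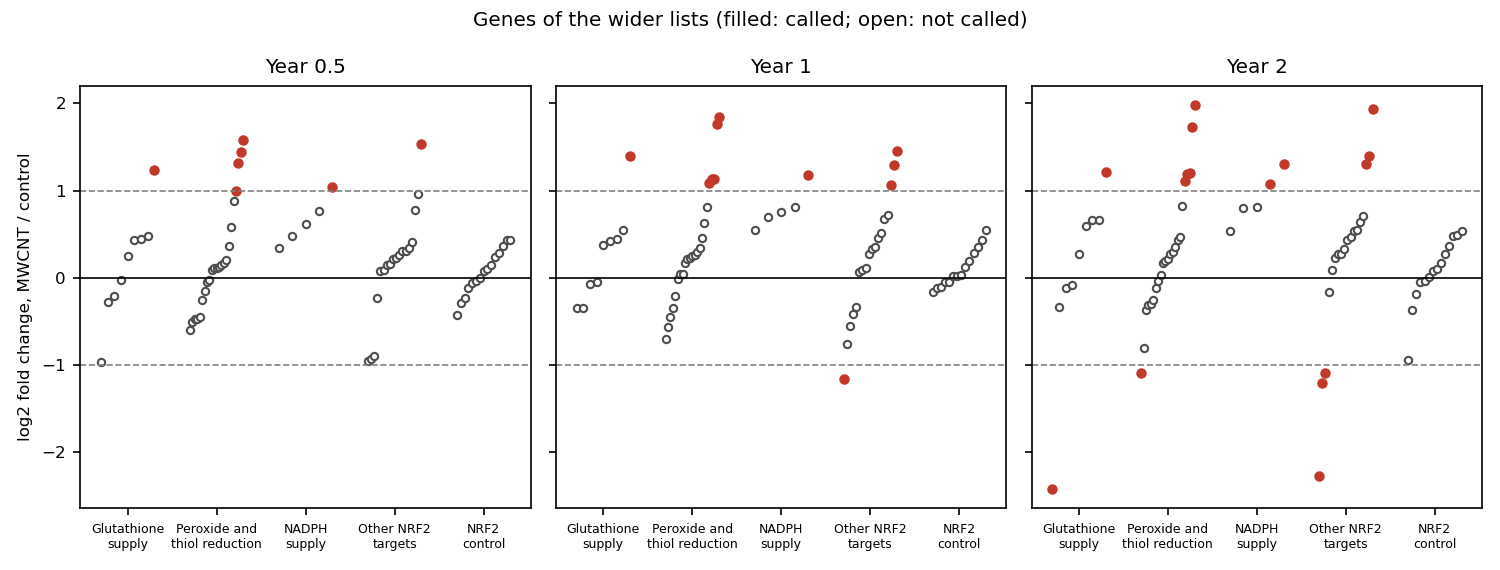
Log2 fold change of MWCNT-treated over control rats for the tested genes of the 5 wider lists at each year, sorted within a list; filled red points were called (FDR below 0.05 and beyond a dashed line), open points were not. The NADPH supply genes all lie above 0, and the genes listed for control of NRF2 hold no filled point.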

How the data were processed

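Lung RNA of 18 rats (3 per treatment and time point) had been sequenced from NEBNext Ultra II RNA libraries, and the authors mapped the reads to the rat genome (Rnor_6.0, per the labels) and counted them per gene in CLC Genomics Workbench. The deposited tables, 1 per time point, hold whole counts per gene, TPM and RPKM by the authors, and a signal column of TMM-adjusted CPM. Of these, the deposited counts and TPM were used. A further 18 columns of the authors' own comparisons (fold changes and p-values) were left out.

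From the counts, CPM values were recomputed with TMM factors over all 18 rats. edgeR 4.0.16 (R 4.3.3; filterByExpr, minimum count 10; TMM; quasi-likelihood F test; Benjamini-Hochberg) was fitted to the 6 rats of each time point. Interactions and time effects came from 1 model of all 18 rats. The call limits were an FDR of 0.05 and a log2 fold change of 1 in either direction, and an interaction needed the FDR alone. SEs are the log2 fold change over the root of F. Scripts were tested on simulated data. Alternatives were DESeq2 1.42.0, limma 3.58.1 on log2(TPM + 1) and log2(TPM + 0.1), other scalings, filters and sample sets. Sequences came from RefSeq (GRCr8).

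Named genes were the members, 7 partner genes, the 3 genes of each wider list with the largest change among those called and not overlapping, and the 3 genes nearest to any member called at all time points. The values of 1 gene chosen by this rule are not reported here. The members and lists were chosen with earlier results of these data known. Replicate libraries differed by more than counting noise, and no library was merged. Same-numbered rats are different animals, and their deviations from the group means correlated by -0.147 to 0.107, so the numbers were not taken as pairs. The strand setting of the counting is not given in the sources used here, and without strand overlapping genes cannot be separated.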

Additional observations from a re-analysis of the deposited data

Results flagged for a closer look

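In the main fit the effect of MWCNT on Txnrd1 passed the interaction test between Year 0.5 and Year 2. The log2 fold change against control rats was larger at Year 2 by 0.40 (SE 0.09, edgeR interaction FDR 0.0356). All 6 MWCNT-treated rats of these time points lay above their controls, which concerns the effect at each time point and not its change. Groups separated in either direction for 51.6% and 59.9% of all tested genes there. The FDR ranged from 0.00431 to 0.163 over the alternatives, while the difference stayed between 0.33 and 0.44.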

How the results depend on the processing

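Slc7a11 was called at every time point under the alternatives, with 2 exceptions. With at least 10 counts required in every rat it was not tested at Year 0.5 and 0 members were called, and on log2(TPM + 1), where the pseudocount exceeds its level, its Year 1 value was 0.91 and 0 members were called. Without a fold limit the members called were 3, 5 and 3 and the genes of the wider lists 36, 39 and 49 at Year 0.5, 1 and 2. The wider lists had 7, 5 and 6 calls at Year 1 with library size alone, log2(TPM + 1) and log2(TPM + 0.1), and 4 to 9 at Year 0.5 with 1 rat left out. The Txnrd1 interaction was 1 call and fell to 0 with no low count filter (0.38), library size alone (0.33), upper quartile scaling (0.38), only the groups compared (0.40) and 9 fits with 1 rat left out (0 to 1 calls over the 12). From Year 1 to Year 2 the count was 0, 1 by DESeq2, and 0 to 2 with 1 rat left out.

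Signs turned for values near 0. Gpx2 was -0.02 at Year 0.5 on both TPM scales, and at Year 2 -0.14 with library size alone, -0.03 with upper quartile scaling and -0.20 on both TPM scales, with -0.04 to 0.15 on leaving out 1 rat. Gclc was -0.02 at Year 1 and -0.06 at Year 2 with library size alone and -0.12 and -0.10 on both TPM scales. Nqo1 at Year 2 ranged from -0.13 to 0.07, and the Slc7a11 change from Year 0.5 to Year 2 from -0.38 to 0.99, with 1 rat left out. TPM moved the median of all genes by -0.13, -0.21 and -0.19 at Year 0.5, 1 and 2 and the share of calls that were higher from 66.7%, 60% and 49.9% to 57.1%, 41.0% and 36.6%. Alternatives for time effects within MWCNT-treated rats were added after seeing the data.

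With the replicate number as a block, 1 member was called at each time point, 7, 11 and 15 genes of the wider lists, 0, 1 and 0 interactions, and 0 members over time in either treatment. The numbers did not pair the rats: 6 of 18 correlated best with their own number. Of the FDR results with no fold limit, those of Nqo1 at Year 0.5 and Nfe2l2 at Year 1 and Year 2 were lost under the block. Slc7a11 had as few as 4 counts in a control rat, which limits the precision of its fold change.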
